A study of Gallus gallus with 60 samples.

Results

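The potassium channel genes are the rows of the cerebrum array table whose first probe set carries exactly 1 gene symbol in the platform annotation, with a symbol that starts with KCN and a further letter. This rule, which used no measured value, found 54 rows of 20398, and these rows stood for 53 genes, with KCNG4 represented by 2 rows. The genes were measured in 60 laying hens of the lines Lohmann Selected Leghorn (LSL, 30 hens) and Lohmann Brown (LB, 30 hens), with 1 Affymetrix chicken gene array per hen. Both are commercial egg-laying lines, and all hens were 65 to 68 weeks old and came from a small group housing system. Of the LSL hens 16 lived in groups of 36 and 14 in groups of 54, and of the LB hens 14 lived in groups of 36 and 16 in groups of 54. No hen received a treatment. The labels name the right posterior cerebrum for every hen, while the study's methods name the left and right posterior cerebrum for the arrays. The methods also state that birds judged stressed and birds judged calm were both picked, a status that is absent from the labels. Each compartment held hens of 1 line, and the labels do not name the compartment of a hen.

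Potassium channels let potassium ions leave or enter a cell along their gradient and thereby set the resting membrane potential, end action potentials and control how often a neuron fires. The pore is built from subunits that belong to several families. The voltage-gated Kv channels open on depolarisation, the KCNQ channels carry the M current that restrains repetitive firing, and the EAG, ERG and ELK channels encoded by the KCNH genes are slow voltage-gated relatives. Other families open on calcium or sodium ions inside the cell, the inward rectifiers encoded by the KCNJ genes stabilise the resting potential and answer to G proteins or to ATP, and the leak channels encoded by the KCNK genes stay open at rest. Silent subunits form no channel alone and change the Kv channels that they join, while auxiliary subunits change gating and transport to the membrane.

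The values were deposited as log2 values after robust multi-array average (RMA) normalization, and the array medians had a median of 6.86. A row summarised between 1 and 37 probe sets among the potassium channel genes, with a median of 2. Rows with a mean under a log2 value of 5.08, the 20th percentile of all rows, were not tested. Of the 54 rows 48 were tested, each for a different gene. The 6 rows left out were those of KCNE2, KCNMB1, KCNJ1, KCNJ15 and KCNJ16 and the second row of KCNG4, whose means ran from 3.52 for KCNJ16 to 4.79 for KCNMB1. As tissue marks, SNAP25, STMN2, ELAVL4 and NEFL, known from neurons, had means of 12.19, 11.20, 11.20 and 9.03. EN2, GBX2, PAX2 and ATOH1, known from midbrain and cerebellum, had means between 5.18 and 6.68. Of the markers known from the telencephalon, NR2E1 had a mean of 8.62. EMX2 had a mean of 5.67, within the range of the midbrain and cerebellum markers. With the group means taken out, the leading principal component split the arrays into a set of 42 and a set of 18, the latter with 10 LSL and 8 LB hens. No label names this split, which was found from the values, but it follows runs of hen numbers. The smaller set holds hens 1 to 6 and 11 to 22, and the larger set holds hens 7 to 10 and 23 to 60. What lies behind the split was not tested. The sets were used to look at the line difference, the spread and the correlations inside them. In 1 alternative fit the set also entered as a block. The precision is limited by the number of arrays, and hens taken from the same compartment are not independent, so that the p-values can be too small.

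Layer line was the first comparison. A total of 8 of the 48 genes differed between the lines (adjusted p under 0.05 in limma, with Benjamini-Hochberg adjustment over all 16317 tested rows). KCNJ8, KCNF1, KCNJ4 and KCNIP4 were higher in LSL, and KCND2, KCNT2, KCNV2 and KCNH6 were lower. Among all tested rows 22.8% passed the same threshold, 10.8% in the direction of higher and 11.9% in the direction of lower values in LSL. Whether the share of 8 of the 48 genes differed from this background was not tested. The differences were small, between 1.08-fold for KCNH6 and 1.2-fold for KCNJ8, and the values of the lines overlapped for each of the 8 genes. The median size of the log2 fold change was 0.0637 over the 48 genes and 0.0625 over all tested rows, and the signed median was 0.0151 and 0.0026.

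**Figure D1:**
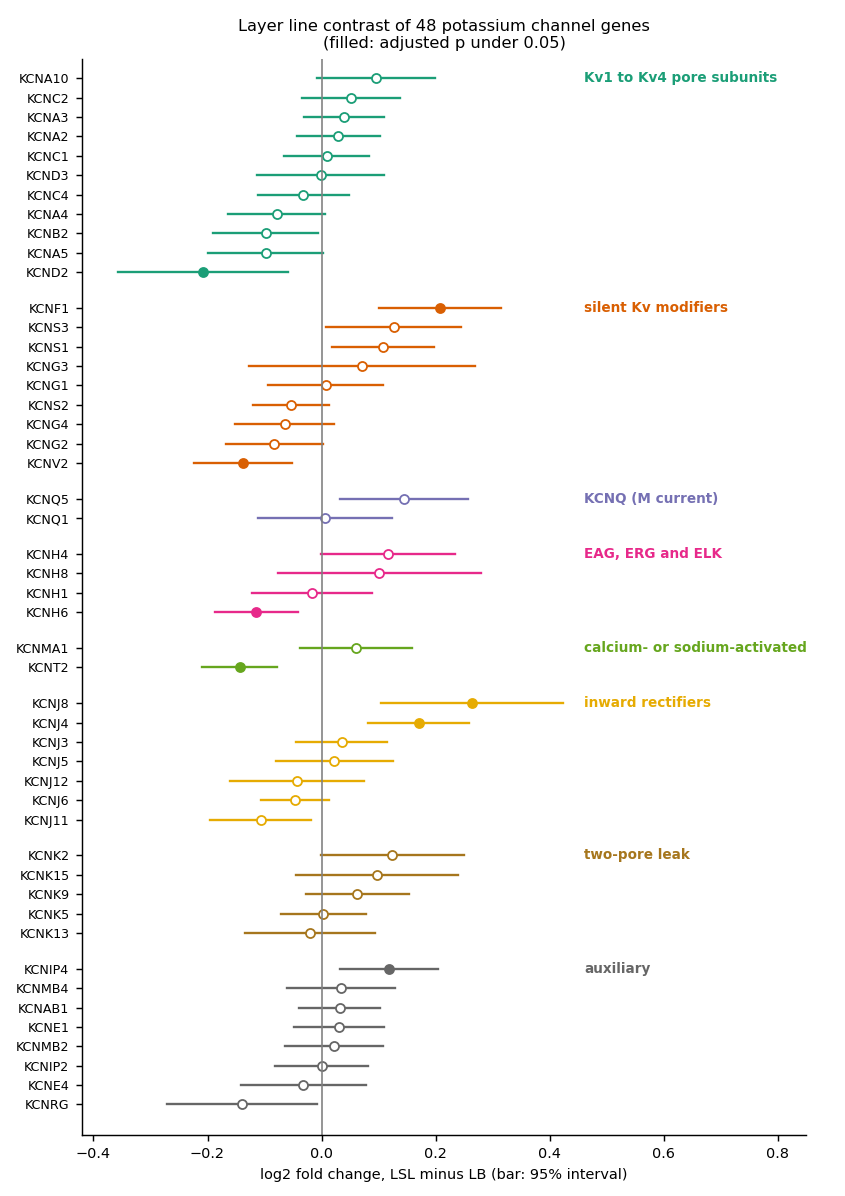
Layer line contrast of the 48 tested potassium channel genes, grouped by family, as log2 fold change of LSL minus LB on the horizontal axis with the 95% interval as a bar. Filled points mark the 8 genes past the threshold, 4 on each side of 0, and all points lie between -0.21 and 0.26.

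Among the 11 tested pore subunits of the Kv1 to Kv4 channels 1 fell in LSL, none rose and 10 did not pass, with a median log2 fold change of -0.0016. The gene that fell was KCND2, which encodes Kv4.2, the subunit of the rapidly inactivating A-type current of mammalian dendrites. Its log2 value was lowest at 6.82, 7.58 in the median and highest at 7.94 in LSL, and 7.14, 7.75 and 8.40 in LB. The ranges overlapped widely, and 23 of 30 LSL hens lay below the LB median. LSL minus LB was -0.21 in log2 units with a standard error of 0.075 (adjusted p = 0.0347 in limma). With pairs of hens of neighbouring numbers (1 and 2, 3 and 4, and so on), which may come from 1 compartment, as a random block the adjusted p was 0.135, and without hen 21 of the LSL groups of 54 it was 0.0501. KCND2 was measured by a single probe set, as was KCNF1 of the genes past the threshold.

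The other pore subunits of this family did not pass. KCND3, the Kv4.3 subunit that joins KCND2 in the same channels, had a log2 fold change of -0.0016 with a 95% interval from -0.11 to 0.11. KCNA2, the Kv1.2 subunit of axons, had 0.03 with an interval from -0.04 to 0.10. KCNC1, the Kv3.1 subunit of fast-spiking neurons in mammals, had 0.01 with an interval from -0.07 to 0.08. Changes of more than 1.1-fold in either direction therefore lay outside the intervals of these 3 genes. The interval reached beyond 1.1-fold for others, as for KCNA5, the Kv1.5 subunit, with a log2 fold change of -0.10 and an interval from -0.20 to 0.0033. KCNB2, a Kv2 subunit, had a log2 fold change of -0.10 (adjusted p = 0.122 in limma).

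Among the 9 tested silent modifiers, 1 rose, 1 fell and 7 did not pass. KCNF1, which encodes the Kv5.1 subunit that joins Kv2 channels, had log2 values from 7.07 over a median of 7.61 up to 8.05 in LSL and from 7.09 over 7.39 up to 7.72 in LB. The lowest hens of the lines were nearly alike and the LSL hens reached higher, and 24 of 30 LSL hens lay above the LB median. The mean was 7.61 ± 0.23 (SD, n = 30) for LSL hens against 7.40 ± 0.18 (SD, n = 30) for LB hens, and LSL minus LB was 0.21 in log2 units with a standard error of 0.054 (adjusted p = 0.00243 in limma).

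KCNV2, the Kv8.2 subunit known from mammalian photoreceptors, was the silent modifier that fell. Its log2 values ran from 4.79 over a median of 5.34 to 5.56 in LSL and from 5.10 over 5.42 to 5.68 in LB, close to the limit of the tested rows. The LSL hens reached lower and 21 of 30 lay below the LB median. LSL minus LB was -0.14 in log2 units with a standard error of 0.043 (adjusted p = 0.0122 in limma), and with the random block of hens the adjusted p was 0.0664. KCNS1, another silent modifier, had 0.11 (adjusted p = 0.0720 in limma), and KCNG2 had -0.08 (adjusted p = 0.161 in limma).

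Neither of the 2 tested KCNQ genes passed. KCNQ5, a subunit of M channels, had a log2 fold change of 0.14 with a 95% interval from 0.03 to 0.26, and its adjusted p of 0.0541 in limma stood just beyond the threshold. For KCNQ5, 24 of 30 LSL hens lay above the LB median. KCNQ1, known from epithelia and heart, had 0.01 (adjusted p = 0.962 in limma).

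Of the 4 tested KCNH genes 1 fell and 3 did not pass. KCNH6 encodes an ERG type channel. Its log2 values ran from 5.67 over a median of 5.96 to 6.30 in LSL and from 5.85 over 6.10 to 6.40 in LB. The whole LSL range was shifted down a little, and 22 of 30 LSL hens lay below the LB median. LSL minus LB was -0.11 in log2 units with a standard error of 0.037 (adjusted p = 0.0156 in limma). KCNH1, the ether-a-go-go channel of neurons, had -0.02 with a 95% interval from -0.12 to 0.09.

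The calcium- or sodium-activated channels were represented by 2 tested genes, of which KCNT2 fell and KCNMA1 did not pass. KCNT2 encodes the sodium-activated channel Slick, and its row, with 37 probe sets, was the broadest of all members. The log2 values ran from 8.94 over a median of 9.32 to 9.55 in LSL and from 9.22 over 9.47 to 9.68 in LB. The LSL hens reached further down, and 25 of 30 lay below the LB median. The mean was 9.32 ± 0.14 (SD, n = 30) for LSL hens against 9.46 ± 0.10 (SD, n = 30) for LB hens, and LSL minus LB was -0.14 in log2 units with a standard error of 0.033. This was the smallest adjusted p of the 48 genes, 0.000614 in limma, and 0.00820 with the random block of hens. KCNMA1, the large-conductance calcium-activated channel, had a log2 fold change of 0.06 with a 95% interval from -0.04 to 0.16, and no row was named here for KCNN2 and KCNT1.

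Among the 7 tested inward rectifiers 2 rose and 5 did not pass. KCNJ8 encodes Kir6.1, the pore of an ATP-sensitive channel that in mammalian brain is found in pericytes and smooth muscle of vessels. It had the largest log2 fold change of the 48 genes. Its log2 values ran from 6.92 over a median of 7.46 to 8.14 in LSL and from 6.76 over 7.18 to 7.78 in LB. Hens of both lines spread over most of this range, and 25 of 30 LSL hens lay above the LB median. The mean was 7.47 ± 0.35 (SD, n = 30) for LSL hens against 7.20 ± 0.28 (SD, n = 30) for LB hens, and LSL minus LB was 0.26 in log2 units with a standard error of 0.080 (adjusted p = 0.0106 in limma). In bulk tissue, fewer cells of a type and less RNA per cell cannot be told apart. The marker lists named no gene as a marker of pericytes or smooth muscle, so that these cells were not covered. Of the endothelial markers none of 3 tested passed, with CLDN5 at 0.12 (adjusted p = 0.135), KDR at 0.09 (adjusted p = 0.181) and PECAM1 at -0.18 (adjusted p = 0.0565 in limma). The mean level of the 3 ranged from 7.76 to 8.34 in LSL and from 7.69 to 8.30 in LB, and its part in the result was not tested.

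KCNJ4, the strong inward rectifier Kir2.3 of mammalian forebrain neurons, had log2 values from 7.83 over a median of 8.12 to 8.52 in LSL and from 7.60 over 8.00 to 8.36 in LB. Again 25 of 30 LSL hens lay above the LB median. The mean was 8.14 ± 0.17 (SD, n = 30) for LSL hens against 7.97 ± 0.18 (SD, n = 30) for LB hens, and LSL minus LB was 0.17 in log2 units with a standard error of 0.045 (adjusted p = 0.00263 in limma).

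KCNJ11, the second pore subunit of ATP-sensitive channels, did not pass with a log2 fold change of -0.11 and a 95% interval from -0.19 to -0.02 (adjusted p = 0.0703 in limma). For KCNJ11, 27 of 30 LSL hens lay below the LB median, more than for any of the 4 genes that fell, but the LB hens reached down to 5.50 and thus below the lowest LSL hen at 5.63. KCNJ3 and KCNJ6, the subunits of G protein-gated inward rectifiers, had 0.04 with an interval from -0.04 to 0.11 and -0.05 with an interval from -0.11 to 0.01. No row was named here for KCNJ10.

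Of the 5 tested leak channel genes none passed. KCNK2, the stretch- and lipid-sensitive channel TREK-1, had a log2 fold change of 0.12 with a 95% interval from -0.0015 to 0.25. KCNK9, an acid-sensitive leak channel, had 0.06 with an interval from -0.03 to 0.15. No row was named here for KCNK3.

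Among the 8 tested auxiliary genes 1 rose and 7 did not pass. KCNIP4 encodes a calcium-binding protein that joins Kv4 channels. Its log2 values ran from 8.34 over a median of 8.70 to 9.35 in LSL and from 8.34 over 8.62 to 9.01 in LB. The lowest values of the lines were alike and the LSL hens reached higher, with 24 of 30 above the LB median. LSL minus LB was 0.12 in log2 units with a standard error of 0.043 (adjusted p = 0.0367 in limma). The adjusted p was 0.0580 without hen 54 of the LSL groups of 54, 0.0946 with array weights and 0.106 with the random block of hens. KCNIP2, a protein of the same kind, had a log2 fold change of 0.0002 with a 95% interval from -0.08 to 0.08, and KCNAB2 and KCNIP1 had no row named here.

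**Figure D2:**
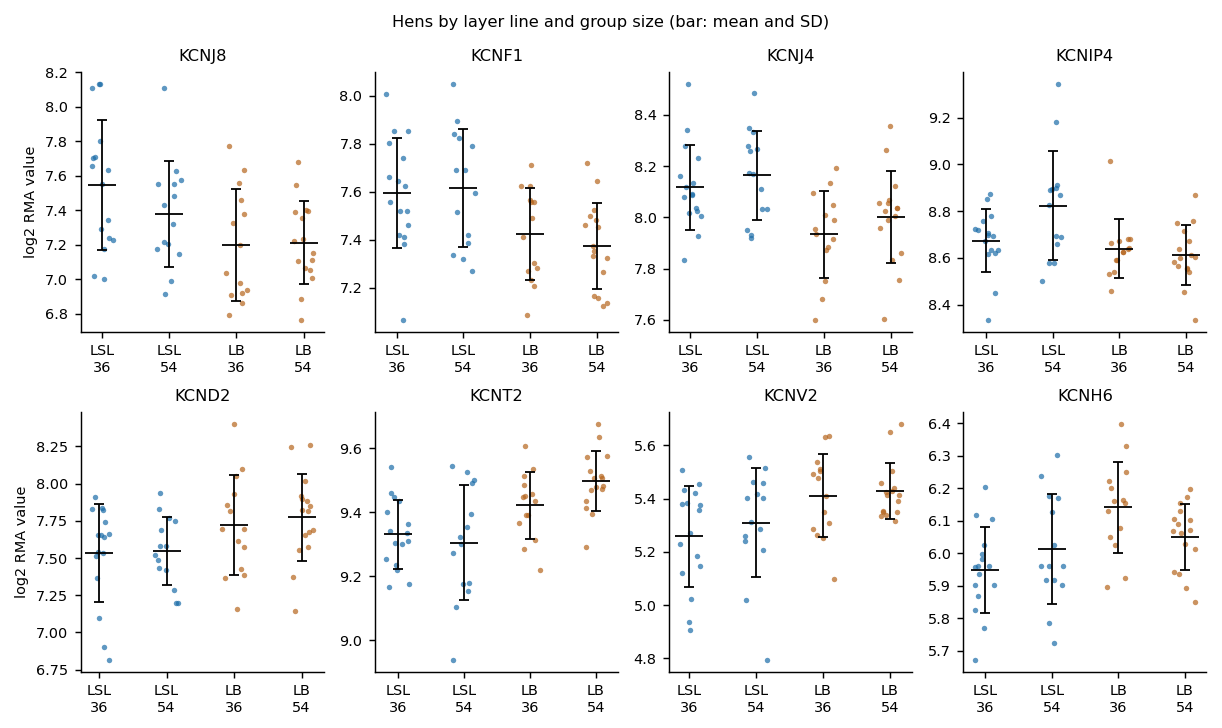
Log2 RMA values of the 8 genes past the threshold, with 1 point per hen in the 4 groups of layer line and group size and the group mean and SD as bars. The upper panels hold the genes higher in LSL and the lower panels those lower in LSL, and the points of the lines overlap in each panel.

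The 40 genes that did not pass had log2 fold changes between -0.14 and 0.14. Their 95% intervals reached at most -0.27 for KCNRG and 0.28 for KCNH8. For 19 of the 40 the interval lay within 1.1-fold in both directions. A total of 14 of the 48 genes had an unadjusted p under 0.05, against 32.9% of all rows.

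With the hen pairs as a random block in limma, 5 of the 48 genes passed, which were KCNT2, KCNF1, KCNJ4, KCNJ8 and KCNH6, against 17.0% of all rows. In the 42 arrays of the larger set 6 passed against 22.5% of all rows, and these were KCNT2, KCNF1, KCNJ4, KCNV2, KCNH6 and, in addition, KCNG2. In the 18 arrays of the smaller set none of the 48 passed in limma against 7.26% of all rows, and 3 genes (KCNF1, KCNJ4 and KCNT2) had an unadjusted p under 0.05 there against 20.9% of all rows. Each of the 8 genes had the same direction in both sets, which together hold the hens on which these genes were called. For KCNJ8 the line difference was 0.23 (standard error 0.087) in the larger and 0.31 (standard error 0.15) in the smaller set, and KCNT2 had -0.14 (standard error 0.039) and -0.15 (standard error 0.064).

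The line difference had opposite directions in the 2 sets for 15 of the 48 genes, none of them among the 8 that passed over all hens. Since the 8 were called on the hens of both sets, like directions in both were favoured by that choice. Over all hens the largest log2 fold change in size among the 15 genes was 0.10. The share of all rows with opposite directions is not given here. KCNG2 and KCNH8 of these 15 genes are given here and were singled out after their values were seen. For KCNG2, a silent modifier of Kv2 channels, LSL minus LB was -0.18 (standard error 0.036, adjusted p = 0.000231 in limma) in the larger set and 0.10 (standard error 0.065, adjusted p = 0.426) in the smaller set. KCNH8, an ELK channel, had 0.24 (standard error 0.10, adjusted p = 0.0790 in limma) and -0.26 (standard error 0.15, adjusted p = 0.357). The mean log2 value of KCNH8 was 5.38, close to the limit of the tested rows, with hens down to 4.66. The difference between the sets was not tested.

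**Figure D3:**
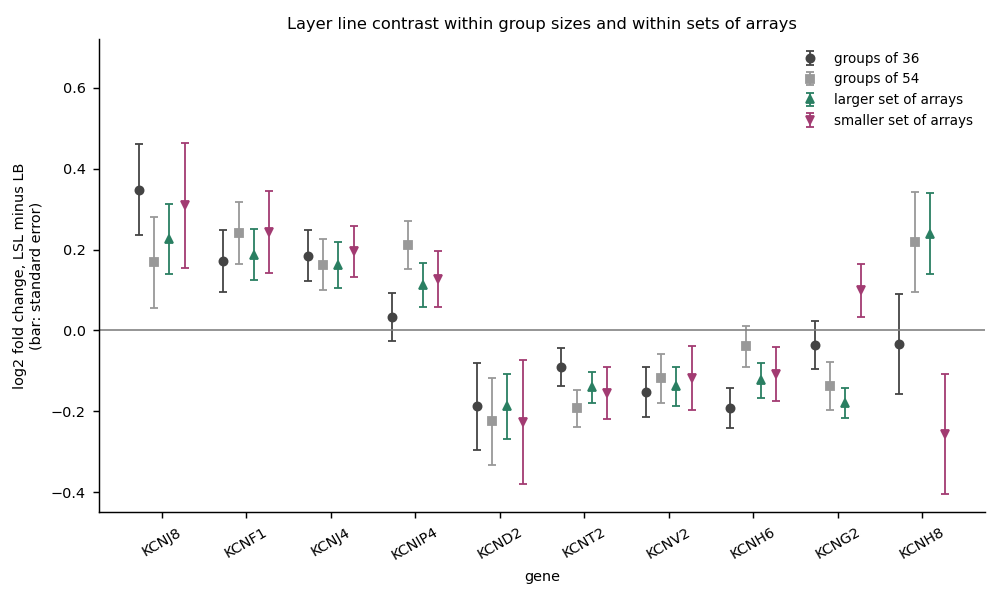
Log2 fold change of LSL minus LB, with the standard error as a bar, for the 8 genes past the threshold and for KCNG2 and KCNH8, within groups of 36, within groups of 54 and within each set of arrays. The 8 genes keep their side of 0 in all 4 subsets, which are drawn from the hens on which these genes passed. KCNG2 and KCNH8 lie on opposite sides of 0 in the 2 sets.

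Group size was the second comparison, and none of the 48 genes passed for groups of 54 against groups of 36 (limma), as for all tested rows (0.0%). With the methods' t-test the count was likewise 0 of 48. An unadjusted p under 0.05 was reached by 4 of the 48 genes, against 5.44% of all rows. The smallest p belonged to KCNRG, whose human product keeps Kv subunits from assembling. In LSL its mean log2 value was 6.03 ± 0.30 (SD, n = 16) in groups of 36 and 6.22 ± 0.24 (SD, n = 14) in groups of 54. In LB the means were 6.17 ± 0.24 (SD, n = 14) and 6.34 ± 0.20 (SD, n = 16). The mean for groups of 54 lay above that for groups of 36 in both lines, and the difference over all hens was 0.19 log2 units (standard error 0.064, adjusted p = 0.865 in limma), which did not pass. KCNE4, a small auxiliary subunit, had -0.13 (standard error 0.053), and KCNJ12, a strong inward rectifier, had 0.12 (standard error 0.057), both at the same adjusted p of 0.865. The mean log2 value of KCNE4 was 5.36, close to the limit of the tested rows, with hens down to 4.73. KCNRG, KCNE4 and KCNJ12 were each measured by a single probe set.

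Whether the difference between the lines depended on group size was tested as an interaction, and none of the 48 genes passed (limma), as for all tested rows (0.0%), with 5 of the 48 genes under an unadjusted p of 0.05 against 4.92% of all rows. KCNK5, an acid-sensitive leak channel, had the smallest p. In groups of 36 its mean log2 value was 8.76 ± 0.17 (SD, n = 16) for LSL hens against 8.88 ± 0.09 (SD, n = 14) for LB hens. In groups of 54 it was 8.88 ± 0.13 (SD, n = 14) against 8.75 ± 0.12 (SD, n = 16). The LSL mean thus lay below the LB mean in the smaller and above it in the larger groups, with log2 fold changes of -0.12 and 0.12, neither of which passed, and the difference between these was 0.24 (standard error 0.070, adjusted p = 0.852 in limma). The next genes were KCNIP4 with 0.18 (standard error 0.083) and KCNH6 with 0.15 (standard error 0.072), both at an adjusted p of 1.00.

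Within groups of 36 the lines differed for 4 of the 48 genes in limma against 11.5% of all rows, and these were KCNJ8, KCNS1 and KCNJ4, higher in LSL, and KCNH6, lower in LSL. The adjusted p of KCNS1 was 0.0278 at a log2 fold change of 0.19. Within groups of 54 the lines differed for 3 of the 48 against 12.1% of all rows, KCNF1 and KCNIP4, higher, and KCNT2, lower. In the groups of 54 the call of KCNF1 was lost without hen 54 (adjusted p = 0.0658), without hen 21 (adjusted p = 0.0528) and with array weights (adjusted p = 0.127 in limma), and the last also ended the call of KCNIP4 (adjusted p = 0.0632). With array weights 4 genes passed in the groups of 54, of which only KCNT2 was among the 3 above. The share of all rows with these weights is not given here, so that the count of 4 cannot be set against it. In the groups of 36 the call of KCNJ4 was lost without a filter on dim rows (adjusted p = 0.0511 in limma). In a fit of the hens of groups of 36 alone the calls of KCNJ8 (adjusted p = 0.0677 in limma) and KCNS1 (adjusted p = 0.0597) were lost. With hen pairs as a random block only KCNH6 (adjusted p = 0.0338) passed in groups of 36 and only KCNT2 (adjusted p = 0.0280) in groups of 54. Since no interaction passed, a gene past the threshold in one group size and not in the other was not shown to differ between them.

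The hens of a group varied most in KCNG3. The SD between hens within groups was 0.40 for KCNG3, 0.35 for KCNH8, 0.32 for KCNJ8, 0.30 for KCND2 and 0.28 for KCNK15, against a median of 0.18 over the 48 genes and 0.18 over all tested rows. It was smallest for KCNJ6 at 0.11. For KCNG3, a silent modifier of Kv2 channels, the log2 values ran from 6.56 over a median of 7.36 to 8.07 in LSL and from 6.52 over 7.31 to 8.10 in LB. The lines thus covered the same range. KCNK15, a leak channel that gives no current alone in mammalian cells, ran from 8.81 over 9.24 to 9.81 in LSL and from 8.73 over 9.13 to 9.77 in LB, and did not pass either (log2 fold change 0.10, adjusted p = 0.369 in limma). The values of KCNK15 went with the split of the arrays, from 8.73 over a median of 9.10 to 9.49 in the larger set and from 9.19 over 9.64 to 9.81 in the smaller set, and its SD within groups and sets was 0.16. For the other 4 genes the SD within groups and sets was between 0.30 and 0.39. Only these 5 genes were set against the split in this way, and other genes can go with it too. KCNC1, picked after its values were seen, ran from 10.15 to 10.38 in the smaller set. In the larger set it reached at most 10.14, in hen 54.

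**Figure D4:**
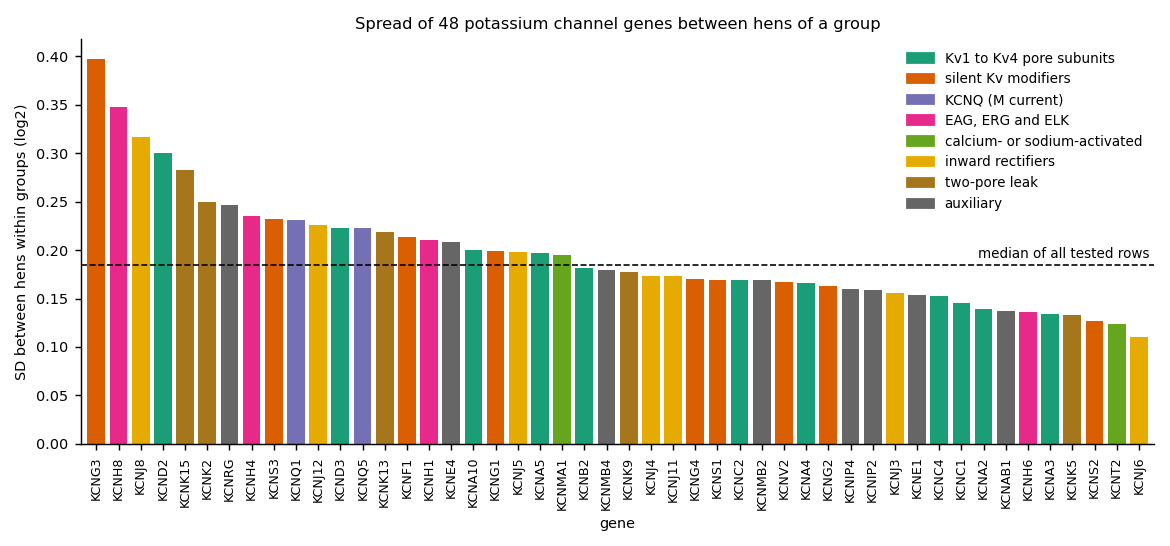
SD of the log2 values between hens within the 4 groups for each of the 48 potassium channel genes, in order of size and coloured by family, with the median over all tested rows as a dashed line. KCNG3 has the largest SD with 0.40 and KCNJ6 the smallest with 0.11.

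A single hen, hen 54 of the LSL groups of 54, lay farther from its group mean than any other of the 60 hens did from theirs in 9 of the 48 genes, against 5.09% of all tested rows. In this hen KCNK2 lay 0.99 and KCNIP4 0.52 above the mean of its group, and KCNG1, KCNC2, KCNC4, KCNA5, KCNS1, KCNA3 and KCNA4 lay between 0.38 and 0.63 below it. Without this hen the count for layer line was again 8, with KCNS1 in the place of KCNIP4. Hen 21 of the LSL groups of 54 was the farthest in 2 of the 48 genes, against 8.5% of all tested rows.

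Subunits that assemble into the same channel were compared across hens. To keep hens that may share a compartment together, hen pairs were averaged, and each pair was set against the mean of its line within its set of arrays. A total of 28 pairs of genes known to assemble, chosen from general knowledge with earlier results known, had both rows tested. In the 21 hen pairs of the larger set 2 of the 28 correlations passed (permutation test within lines with 100000 resamples, two-sided, Benjamini-Hochberg adjustment over the 28), and the median correlation was -0.07. The permutations treated the hen pairs of a line as exchangeable. A drift along the hen numbers was not tested, and with such a drift the p-values can be too small.

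The closest relation was that of KCNJ8 and ABCC9, the sulphonylurea receptor that completes the Kir6.1 channel. Pearson's r was 0.918 (permutation p = 1e-05, the smallest these permutations can give, adjusted p = 0.00028) and Spearman's rho 0.869 (permutation p = 2e-05, adjusted p = 0.00056). Without the 2 hen pairs farthest from the median of KCNJ8 it was 0.889. In the 9 hen pairs of the smaller set r was 0.830 (exact permutation p = 0.00903, adjusted p = 0.214) and rho 0.767 (exact permutation p = 0.0229, adjusted p = 0.214). There r was 0.555 without the 2 farthest hen pairs. ABCC9 had a log2 fold change of 0.20 between the lines (adjusted p = 0.0749 in limma) and thus did not pass. KCNJ8 and ABCC9 are neighbours in the gene order of the GRCg7b assembly. KCNJ11 and ABCC8, which are likewise neighbours there and form the other ATP-sensitive channel, had an r of -0.17 (permutation p = 0.511, adjusted p = 0.749) and a rho of -0.06 (permutation p = 0.795, adjusted p = 0.934) in the larger set.

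The second relation that passed was that of KCNB2, the Kv2.2 pore subunit, and KCNG1, a silent modifier. KCNB2 had a mean log2 value of 5.20, close to the limit of the tested rows, with hens down to 4.75. The mean of KCNG1 was 8.57. In the larger set r was 0.761 (permutation p = 0.00021, adjusted p = 0.00294) and rho 0.777 (permutation p = 0.00024, adjusted p = 0.00336), and without the 2 farthest hen pairs r was 0.681. In the smaller set r was 0.603 (exact permutation p = 0.101, adjusted p = 0.566) and rho 0.517 (exact permutation p = 0.173, adjusted p = 0.484). Hen 54, in which KCNG1 lay 0.63 and KCNB2 0.41 below the group mean, belongs to the larger set. For both relations hen pairs of neighbouring numbers could have like values, as in 2 runs picked after their values were seen. In hen pairs 12 to 15 KCNB2 and KCNG1 lay above the mean of their line in the set, and KCNJ8 and ABCC9 below it. In hen pairs 27 to 30 the signs of these genes were the other way round.

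**Figure D5:**
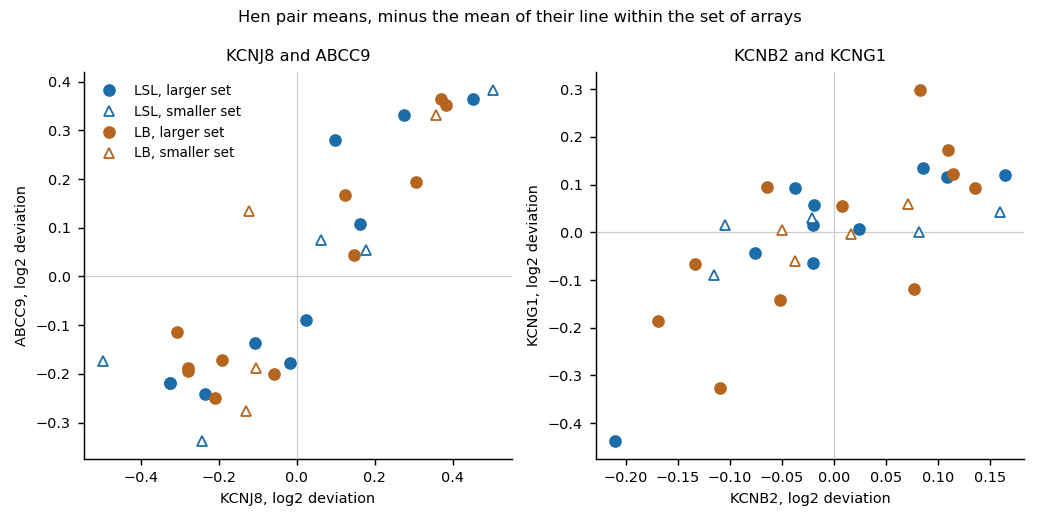
Deviation of hen pair means from the mean of their line within the set of arrays, in log2 units, with ABCC9 against KCNJ8 on the left and KCNG1 against KCNB2 on the right. Filled circles are the 21 hen pairs of the larger set and open triangles the 9 of the smaller set, and the points of KCNJ8 and ABCC9 rise together in both.

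For the 11 genes that passed for line or varied most, the same deviations were related to the mean levels of 12 lists of cell type and region markers, which makes 132 relations per set of arrays. None passed after adjustment in either set. The smallest p of Pearson's r in the larger set was that of KCNJ8 with the endothelial list, with r = 0.671 (permutation p = 0.00061, adjusted p = 0.0805) and rho = 0.532 (permutation p = 0.0141, adjusted p = 0.331), and r was 0.581 without the 2 farthest hen pairs. In the smaller set r was 0.660 (exact permutation p = 0.0437, adjusted p = 0.739) and rho 0.8 (exact permutation p = 0.0111, adjusted p = 0.603). The smallest p of Spearman's rho in the larger set was that of KCNG3 with the glutamatergic list, with rho = -0.72 (permutation p = 0.00048, adjusted p = 0.0634) and r = -0.65 (permutation p = 0.0025, adjusted p = 0.0957), and r was -0.68 without the 2 farthest hen pairs. In the smaller set this r was -0.73 (exact permutation p = 0.0441, adjusted p = 0.739) and rho -0.57 (exact permutation p = 0.132, adjusted p = 0.817).

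Some marker genes differed between the lines, and their part in the differences of the potassium channel genes was not tested. SLC32A1 and GAD2, known from GABAergic neurons, were lower in LSL with log2 fold changes of -0.23 and -0.18. The other 2 of the 4 tested markers of this list, DLX5 and DLX6, did not pass and had 0.03 and 0.02. The mean level of this list ranged from 8.14 to 8.61 in LSL and from 8.22 to 8.69 in LB. Among 5 tested markers of the striatum GPR6 was lower with -0.55, while PENK, ADORA2A and DRD1 were higher with 0.35, 0.20 and 0.16, and the mean level ranged from 7.32 to 8.16 in LSL and from 7.30 to 8.18 in LB. Of 3 tested oligodendrocyte markers MBP was higher with 0.10. NR2E1, known from the telencephalon, was lower with -0.19. Of the 5 tested rows of the microglial list 1 of the 2 TREM2 rows was higher with 0.10, and 4 rows did not pass. These were CSF1R with -0.15, P2RY12 with -0.009, C1QA with 0.007 and the other TREM2 row with 0.06. None of the tested neuronal, glutamatergic, astrocyte, endothelial, erythrocyte, choroid plexus and cerebellum or midbrain markers passed. In limma with a random block of hen pairs SLC32A1, GPR6, ADORA2A and NR2E1 still passed, and the calls were lost for GAD2 (adjusted p = 0.0712), PENK (adjusted p = 0.109), DRD1 (adjusted p = 0.0917), MBP (adjusted p = 0.0697) and the TREM2 row (adjusted p = 0.108).

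Other genes known to act on potassium channels were counted from a list of 41, of which 16 had a named row and 14 were tested. DLG1, a scaffold of Kv channels, and ANK3, the ankyrin of the axon initial segment, rose in LSL with log2 fold changes of 0.08 (adjusted p = 0.00915 in limma) and 0.05 (adjusted p = 0.0428), and RGS7, a regulator of the G proteins that gate KCNJ3 and KCNJ6 channels, fell by 0.07 (adjusted p = 0.0342). The other 11 did not pass, and the share of 3 of 14 stood beside the 22.8% of all rows. In limma with a random block of hen pairs DLG1 (adjusted p = 0.0333) still passed, while ANK3 (adjusted p = 0.0983) and RGS7 (adjusted p = 0.0997) did not.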

How the data were processed

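Total RNA of the cerebrum was hybridised to Affymetrix chicken gene arrays. Per the study's methods the authors background-corrected and quantile-normalized the arrays with RMA. They deposited log2 values as 20399 rows, of which 1 was empty, and a second time as 20396 rows with identical values. Columns were assigned to hens through the labels. Gene symbols came from the platform annotation by way of each row's first probe set: 8390 rows had 1 symbol, 86 had several, and the others were unnamed here. All 53 symbols were found in the gene table of GRCg7b. After 2 control rows were left out, the 16317 rows whose mean reached the 20th percentile were fitted with limma 3.58.1 (lmFit, eBayes; R 4.3.3), each effect alone as in the study's methods. The fits were also run on simulated data with independent hens, which cannot show how hen pairs or sets of arrays affect the p-values. There 17 of 50 changes of 1.1-fold and 39 of 50 of 1.2-fold between the lines were recovered. Correlations were computed in Python 3.11.15. Genes named by rule were those past the threshold for layer line, the 3 with the smallest p for group size and for the interaction, the 5 with the largest SD, and 22 genes of general interest, 12 of which had a tested row. Further genes, such as KCNA5, KCNB2, KCNS1, KCNG2, KCNQ1, KCNQ5 and KCNIP2, were also given for layer line, and none of these rules chose them. The members, lists and alternatives were chosen with earlier results of these data known. Sequences of the channels were not used here.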

Additional observations from a re-analysis of the deposited data

How the results depend on the processing

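For layer line the count of 8 genes ranged from 8 to 10 without a filter on dim rows, with the limit met in 1 array, with repeated quantile normalization, with an intensity trend and robust eBayes, with array weights, with the methods' t-test, with the set of arrays as a block, with group size as a covariate and with the median over the rows of a gene. It was 5 with the hen pair as a random block, 6 in the larger set and 0 in the smaller set of arrays, and it ranged from 7 to 8 when hen 54 or hen 21 of the LSL groups of 54 was left out, which was chosen after seeing the data. The smaller set holds 18 arrays and thus fewer samples. Among all rows 22.8% passed in the main fit of layer line and 17.0% with the hen pair block. These shares were 22.5% in the larger and 7.26% in the smaller set. For the other alternatives in this paragraph the share of all rows is not given here, so that their counts cannot be set against it. Within groups of 36 the count of 4 became 1 with the hen pair block and 2 in a fit of the hens of that group size alone, and within groups of 54 the count of 3 became 1 with the hen pair block, 6 with the set block and 2 when hen 54 or hen 21 was left out. The cause was not tested. For group size and the interaction the count was 0 under every alternative run.

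The direction of the line difference turned under at least 1 of the alternatives that kept single rows for 15 of the 48 genes, none of which had passed. The share of all rows that turned is not given here. It turned for 8 genes in the smaller set, 7 in the larger set, 3 with array weights and 2 with the set block. Of the genes of general interest and those that varied most, KCNC1 was at -0.0091 with the set block and -0.035 in the smaller set, KCND3 at 0.0069 with array weights and 0.0066 in the larger set, KCNH1 at 0.0049 in the larger set and KCNH8 at -0.26 in the smaller set. No paired analysis was possible because hen numbers are unique to a hen and no number is shared between the groups.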
